A study of Mus musculus with 4 samples.

Results

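Cells carrying Cd209a or Clec10a transcripts were examined in droplet single-cell RNA libraries (10x Genomics) of mouse liver. They were selected on their own transcripts: a cell had at least 1 UMI (unique molecular identifier, 1 captured transcript) over Cd209a and Clec10a, at least 1 over Flt3, Cbfa2t3, Tbc1d4 and Batf3, and at least 1 of Cst3. It had 0 UMIs of Xcr1, Clec9a, Fscn1, Siglech, Cd79a and Cd3e and fewer than 5 over C1qa, C1qb and C1qc. Of 24030 kept cells, 187 (0.778%) met these conditions, and they are called Cd209a/Clec10a cells here. There were 28 in KO 1, 26 in KO 2, 64 in Control 1 and 69 in Control 2.

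The 2 libraries labelled Cyr61 KO and the 2 Control libraries came from livers of male mice aged 24 weeks after 12 weeks on a NASH diet. Such a diet gives a fatty, inflamed and scarring liver. All 4 libraries were of the strain Cyr61fl/fl, in which the gene is flanked by recombination sites, and the labels name neither the Cre driver nor the cells in which the gene was deleted. Nothing in the labels says that each library came from its own animal, and the p-values below rest on the spread of these 4 libraries alone, which may be technical.

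Type 2 conventional dendritic cells (cDC2) take up antigen and present its peptides on MHC class II molecules to CD4 T cells. They develop from bone marrow precursors under the cytokine FLT3 ligand. In mice, Cd209a encodes a C-type lectin related to human DC-SIGN and Clec10a one that binds galactose-type sugars, both used to mark such cells. Monocytes that enter inflamed tissue can acquire some of the same transcripts.

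The libraries held 5373 to 7241 barcodes in Cyr61 KO and 4852 to 7253 in Control, with 17187561 and 17925516 total UMIs in Cyr61 KO 1 and 2 and 8290677 and 20537236 in Control 1 and 2. The Cd209a/Clec10a cells had a median of 5298.5 and 5800.5 UMIs in KO 1 and 2, against 2000.5 and 5320 in Control 1 and 2, so Control 1 was the shallowest. Between 6 and 22 barcodes were shared by any pair of libraries, and no barcode was a Cd209a/Clec10a cell in both libraries of a pair. Cyr61, listed under its current symbol Ccn1, had 0 and 12 UMIs over all barcodes in KO 1 and 2 and 184 and 149 UMIs in Control 1 and 2. In the Cd209a/Clec10a cells themselves it had 0 UMIs in both KO libraries, which allows up to 22 and 18.1 CPM (the usual library-scaled count unit, here from the UMIs summed over these cells in each library), and 2 and 0 UMIs in Control 1 and 2.

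The first comparison was how often these cells occurred. They were 0.391% and 0.513% of kept cells in KO 1 and 2, with exact binomial 95% intervals of 0.260 to 0.565% and 0.336 to 0.751%. They were 1.36% and 0.973% in Control 1 and 2, with intervals of 1.05 to 1.73% and 0.758 to 1.23%. Both KO libraries lay below both Control libraries. The means were 0.452 ± 0.0863% in Cyr61 KO and 1.16 ± 0.271% in Control (SD, n = 2 libraries each), a ratio of 0.388. An exact permutation test, two-sided, returned p = 0.33, the smallest it allows with 2 libraries against 2, so the design could not pass 0.05. The intervals cover counting error only. Counting only cells with no UMI of the monocyte genes Ly6c2, Chil3 and F13a1, an alternative chosen after seeing the data, the means were 0.104 ± 0.0483% in Cyr61 KO and 0.840 ± 0.311% in Control, a ratio of 0.124. This rests on 5 and 7 cells in KO 1 and 2, against 50 and 44 in Control 1 and 2. No thinning was applied here, so these shares depend on depth, and Control 1 was the shallowest.

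Of the other dendritic cells counted, only the Xcr1/Clec9a cells were also fewer in both KO libraries. Xcr1/Clec9a cells, which carry the markers of type 1 conventional dendritic cells, were 0.265% and 0.138% of kept cells in KO 1 and 2 and 1.25% and 0.635% in Control 1 and 2. Cells with both Ccr7 and Fscn1, the marks of dendritic cells that migrate to lymph nodes, overlapped between the groups, at 0.130 ± 0.124% in Cyr61 KO and 0.212 ± 0.180% in Control (SD, n = 2). Among these 3 sets together, Cd209a/Clec10a cells made up 57.5 ± 2.19% in Cyr61 KO and 51.8 ± 8.10% in Control (SD, n = 2), a ratio of 1.11 with overlapping groups (exact permutation p = 0.667). Classical monocytes, defined by Ly6c2 with Chil3 or F13a1 and no UMI of Flt3, Xcr1, Clec9a, Siglech, Cd79a or Cd3e, were 1.80 ± 0.479% in Cyr61 KO and 2.30 ± 0.0419% in Control (SD, n = 2).

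**Figure D1:**
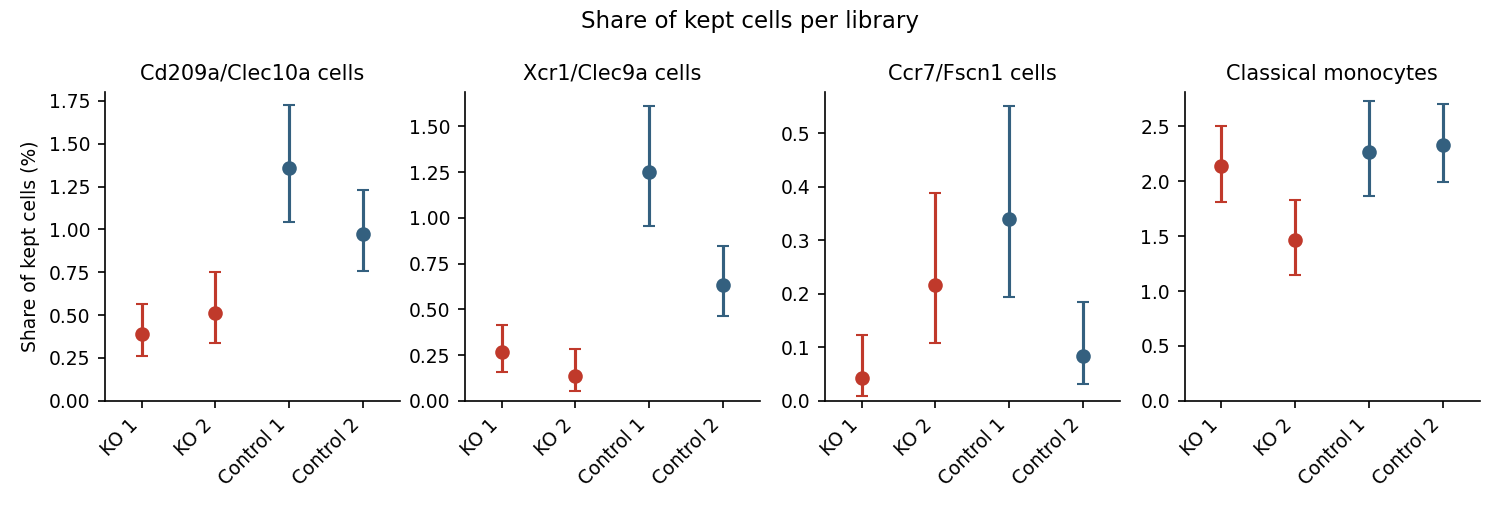
Share of kept cells (%) in each library for the Cd209a/Clec10a cells and 3 related sets; points are libraries (Cyr61 KO red, Control blue) and bars exact binomial 95% intervals, which cover counting error only. The Cd209a/Clec10a cells were 0.391% and 0.513% in KO 1 and 2, below 1.36% and 0.973% in Control 1 and 2.

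The values that chose the cells are given as a description, with no test. Cd209a was found in 16 of 28 and 15 of 26 cells of KO 1 and 2 and in 45 of 64 and 54 of 69 cells of Control 1 and 2. Its summed level was 463 and 530 CPM in KO 1 and 2 and 734 and 705 CPM in Control 1 and 2. Clec10a stood at 228 and 175 CPM in KO 1 and 2 and at 351 and 234 CPM in Control 1 and 2. Flt3, the receptor for the dendritic cell growth factor, stood at 73.4 and 66.2 CPM in the KO libraries and 139 and 109 CPM in the Control libraries. Cst3, which encodes cystatin C and is abundant in dendritic cells, overlapped, with 2738 and 4003 CPM in KO 1 and 2 and 4254 and 3826 CPM in Control 1 and 2. Cells with at least 1000 UMIs were also thinned to 1000 UMIs each, and the others were left out. Among the Cd209a/Clec10a cells this left out 15 and 5 in Control 1 and 2 and 0 in each KO library. After thinning, a Cd209a or Clec10a UMI was found in 0.151% and 0.268% of cells with a Cd3e UMI (T cells) in KO 1 and 2. In Control 1 and 2 it was found in 0.468% and 0.501%. Over all T cells, which should lack both genes, the median depth before thinning was 2881 and 3986 UMIs in KO 1 and 2 and 1563 and 3054 UMIs in Control 1 and 2.

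Many cells stood at the edge of the selection. Exactly 1 UMI over the 2 lectins was held by 12 cells in each KO library and by 29 and 20 cells in Control 1 and 2. In those cells the 4 transcripts H2-Aa, H2-Ab1, H2-Eb1 and Cd74 took a median of 0.0391% and 0.106% of UMIs in KO 1 and 2, against 3.13% and 0.955% in Control 1 and 2. Just outside, 151 and 100 cells of KO 1 and 2 and 237 and 221 cells of Control 1 and 2 lacked only a lectin UMI. The fewer than 5 C1q UMIs allowed kept out 0 and 0 cells in the KO libraries and 2 and 1 cells in the Control libraries that met every other condition.

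The label of type 2 dendritic cells was set against other markers. The 4 class II transcripts, which type 1 dendritic cells also carry, took at least 2% of UMIs in 10 of 28 cells of KO 1 (35.7%) and 10 of 26 cells of KO 2 (38.5%). In the Control libraries they did so in 45 of 64 cells of Control 1 (70.3%) and 45 of 69 cells of Control 2 (65.2%). The median was 1.16% and 1.29% of UMIs in KO 1 and 2 and 3.68% and 3.1% in Control 1 and 2. This bound marks a range and no cell type, since 3 cells in each KO library and 8 and 10 cells in Control 1 and 2 lay within 0.5 percentage points of it. Zbtb46, a transcription factor of conventional dendritic cells, had only 2 and 0 UMIs in KO 1 and 2 and 4 and 6 UMIs in Control 1 and 2. Esam and Clec4a4, surface proteins of a cDC2 subset, had at most 1 UMI in any library. All 3 belong to a list of 15 cDC2 markers that the selection did not use. The list summed to 3208 and 3545 CPM in KO 1 and 2, above 2614 and 2094 CPM in Control 1 and 2. Of its 10 genes tested below, 6 had positive and 4 negative log2 fold changes (KO over Control). Thinned, Ccr2 was found in 64.3% and 53.8% of cells of KO 1 and 2 and in 32.7% and 32.8% in Control 1 and 2. Sirpa was found in 21.4% and 19.2% (KO 1 and 2) and in 8.16% and 10.9% (Control 1 and 2).

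Classical monocyte transcripts went the other way from the class II transcripts. A UMI of Ly6c2, Chil3 or F13a1, which encode a monocyte surface protein, a secreted lectin and a coagulation factor subunit, was held by 23 of 28 cells of KO 1 (82.1%) and 19 of 26 cells of KO 2 (73.1%). In Control 1 and 2 the numbers were 14 of 64 cells (21.9%) and 25 of 69 cells (36.2%). Thinned to 1000 UMIs per cell, the shares were 75% and 57.7% of 28 and 26 cells in KO 1 and 2. In Control 1 and 2 they were 20.4% and 25% of 49 and 64 cells. They averaged 66.3 ± 12.2% in Cyr61 KO and 22.7 ± 3.25% in Control (SD, n = 2, exact permutation p = 0.33, the smallest possible). T cells held such a UMI after thinning in 36.4% and 37.1% of cells in KO 1 and 2 and in 34.0% and 24.9% in Control 1 and 2, and Ly6c2 is also transcribed by some T cells. In the classical monocytes it was 90.5% to 95.9%.

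The whole list of 11 classical monocyte genes summed to 7305 and 6224 CPM in KO 1 and 2 and to 2541 and 4378 CPM in Control 1 and 2. The same list stood at 9914 to 10951 CPM in the classical monocytes. Vcan had 0 UMIs in KO 1, and Vcan and F13a1 had 0 in Control 1. Both KO libraries lay above both Control libraries. The monocytes were defined by genes of this list, so their level is partly set by their selection. The cells are named by the lectins throughout and not as cDC2.

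**Figure D2:**
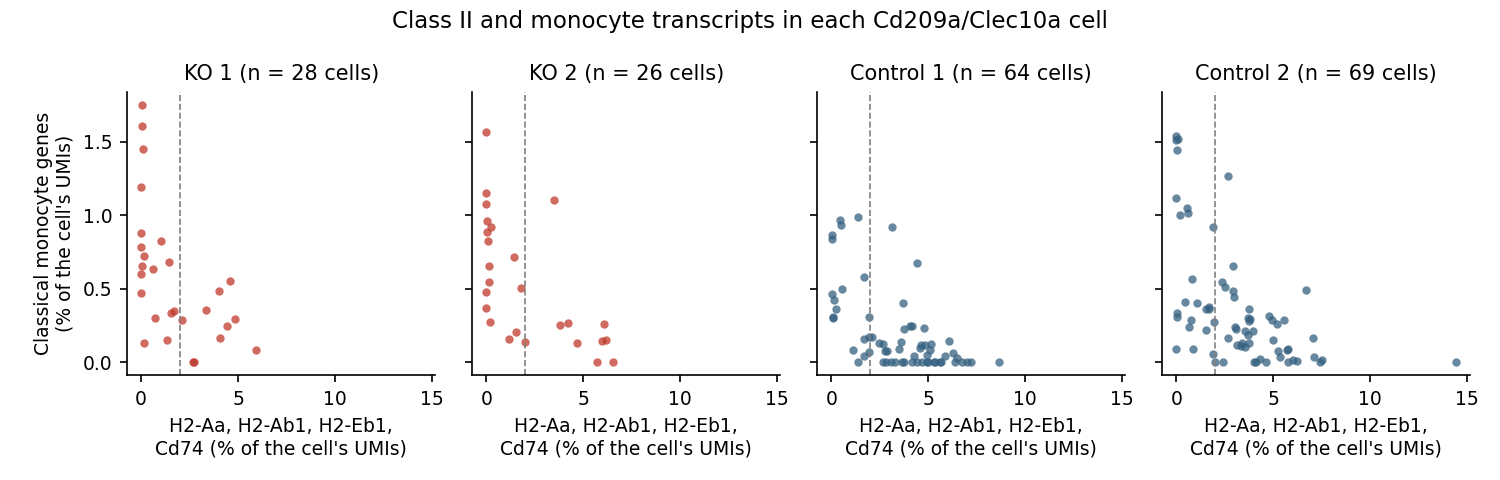
Each point is 1 Cd209a/Clec10a cell; the x axis gives the summed share of its UMIs (%) from H2-Aa, H2-Ab1, H2-Eb1 and Cd74, the y axis that from the 11 classical monocyte genes, and the dashed line marks 2%. Left of the line lie 18 of 28 and 16 of 26 cells of KO 1 and 2, against 19 of 64 and 24 of 69 cells of Control 1 and 2.

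The cells above and below 2% of class II transcripts differed in both groups. Below it, 16 of 18 and 13 of 16 cells of KO 1 and 2 held a Ly6c2, Chil3 or F13a1 UMI, and 9 of 19 and 18 of 24 cells of Control 1 and 2. Above it, 7 of 10 and 6 of 10 cells of KO 1 and 2 did, against 5 of 45 and 7 of 45 cells of Control 1 and 2. Above the bound, Cd209a reached 1177 and 1361 CPM in KO 1 and 2 and 837 and 945 CPM in Control 1 and 2. Cd209a was one of the genes that chose the cells. Itgax, which encodes the integrin CD11c, was at 29.4 and 25.2 CPM above the bound in KO 1 and 2 and at 177 and 143 CPM in Control 1 and 2. This was 1 UMI in each KO library, against 18 and 32 UMIs in Control 1 and 2. Fn1 (fibronectin) stood above the bound at 265 and 328 CPM in KO 1 and 2 and at 9.85 and 35.8 CPM in Control 1 and 2. This was 9 and 13 UMIs in KO 1 and 2 and 1 and 8 UMIs in Control 1 and 2. These values describe 10 KO cells per library and carry no test.

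Genes were then compared between Cyr61 KO and Control on UMIs summed over the Cd209a/Clec10a cells of each library. Of the MHC class II genes 6 were lower in the KO cells, as were the cyclins Ccnd1 and Ccnd2. Apoe, Slpi, Lyz2 and Fn1 were among the genes that were higher. Of 2300 genes tested, 44 (1.91%) passed a Benjamini-Hochberg adjusted p of 0.05 in edgeR's quasi-likelihood test, 24 higher (1.04%) and 20 lower (0.87%), and 321 had an unadjusted p below 0.05. All 44 had groups that did not overlap, as did 1067 of the 2300 genes (46.4%). The median log2 fold change over all tested genes was -0.01. No call passed when at least 2 lectin UMIs were asked of a cell, where 183 of 1327 tested genes had an unadjusted p below 0.05 and 32 of the 33 genes tested again kept their sign. The count was 73 without KO 1 and 132 without Control 2.

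The class II genes gave the clearest group. H2-Eb1, which encodes the beta chain of the I-E molecule, stood at 1109 and 1613 CPM in KO 1 and 2 and at 6564 and 5060 CPM in Control 1 and 2. Both KO libraries lay far below both Control libraries. The log2 fold change (KO over Control) was -2.25 ± 0.26 (SE, n = 2 libraries each, edgeR adjusted p = 0.00164). H2-Ab1, the beta chain of I-A, had 2195 and 2498 CPM in KO 1 and 2 and 6345 and 5533 CPM in Control 1 and 2. H2-Aa, the alpha chain of I-A, had 2166 and 2642 CPM in KO 1 and 2 and 6054 and 5631 CPM in Control 1 and 2. Neither overlapped, and their log2 fold changes were -1.50 ± 0.23 and -1.44 ± 0.23 (SE, edgeR adjusted p = 0.00787 and 0.00941). In cells with at least 2 lectin UMIs the log2 values were smaller and did not pass, at -1.55 ± 0.23 for H2-Eb1, -0.85 ± 0.20 for H2-Ab1, -0.81 ± 0.20 for H2-Aa and -0.60 ± 0.23 for Cd74 (edgeR adjusted p = 0.0743, 0.225, 0.225 and 0.319).

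The invariant chain and both chains of H2-O were lower too. Cd74, the invariant chain that fills the class II groove until peptide is loaded, had 6350 and 7391 CPM in KO 1 and 2 and 13193 and 13422 CPM in Control 1 and 2 (log2 -1.12 ± 0.24, SE, edgeR adjusted p = 0.0319). H2-Oa and H2-Ob form H2-O, a modulator of peptide loading. H2-Oa had 29.4 and 48.2 CPM in KO 1 and 2 and 165 and 145 CPM in Control 1 and 2 (log2 -2.10 ± 0.41, edgeR adjusted p = 0.0244). H2-Ob had 22 and 24.1 CPM in KO 1 and 2 and 119 and 97.5 CPM in Control 1 and 2 (log2 -2.32 ± 0.49, edgeR adjusted p = 0.0307). Of the 14 genes of the class II list 13 were tested, of which 6 were lower, none was higher and the median log2 fold change was -1.36, against -0.01 over all genes. Ciita, the coactivator that switches class II genes on, had 103 and 54.2 CPM in KO 1 and 2 and 192 and 167 CPM in Control 1 and 2, with a log2 value of -1.36 ± 0.37 that did not pass (edgeR adjusted p = 0.0757). H2-DMa, a chain of the peptide exchanger H2-M, overlapped between the groups, and the cathepsin gene Ctss had a log2 value of 0.28 ± 0.23 (edgeR adjusted p = 0.632).

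Class II promoters share a set of upstream elements, among them an inverted CCAAT box bound by NF-Y, and the promoters of the lower class II genes that hold this box are shown for this reason. The letters CTGATTGG, an inverted CCAAT box with its flanks, were searched on both strands of the RefSeq promoters (GRCm38.p6, 250 bases before to 50 after the start). Of the 14 class II list genes 11 had a promoter in that table and 4 of these held the letters, against 1346 of all 32851 promoters (4.10%). Capitals mark the letters, which lie on the strand of the gene in each line.
H2-Aa, chr17:34287847-34287934, minus strand: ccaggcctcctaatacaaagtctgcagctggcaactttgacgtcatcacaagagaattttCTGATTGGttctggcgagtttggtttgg
H2-Eb1, chr17:34305745-34305832, plus strand: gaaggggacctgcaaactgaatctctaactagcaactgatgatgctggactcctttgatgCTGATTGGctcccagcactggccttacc
H2-Oa, chr17:34092273-34092360, plus strand: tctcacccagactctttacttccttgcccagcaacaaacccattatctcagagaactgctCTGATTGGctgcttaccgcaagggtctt
The first base of the letters lay 51 bases before the start of H2-Aa, 62 before that of H2-Eb1 and 46 before that of H2-Oa. The fourth gene with the letters, H2-Eb2, had 3 UMIs in Control 2 and none elsewhere and was not tested. H2-Ob, also lower, held no match in its window, and the promoters of H2-Ab1 and Cd74 were not searched. A match describes the sequence and says nothing of binding in these cells.

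Further genes that were lower included an integrin of dendritic cells and D-type cyclins. Itgax had 14.7 and 36.1 CPM in KO 1 and 2 and 126 and 103 CPM in Control 1 and 2 (log2 -2.22 ± 0.50, SE, edgeR adjusted p = 0.0405). It was the only lower gene of the 10 tested among 15 cDC2 markers that the selection did not use, whose median was 0.50, and none was higher. Mgl2, a lectin close in sequence to Clec10a, had 14.7 and 18.1 CPM in KO 1 and 2 and 285 and 64.0 CPM in Control 1 and 2, with a log2 value of -3.32 ± 0.81 that did not pass (edgeR adjusted p = 0.0549). In both KO libraries all Mgl2 UMIs came from 1 cell. Klf4, a transcription factor needed by some cDC2 and by monocytes, had 1057 and 897 CPM in KO 1 and 2 and 470 and 407 CPM in Control 1 and 2 (log2 1.0 ± 0.25, edgeR adjusted p = 0.0566).

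The D-type cyclins carry cells from rest into the division cycle. Ccnd1 had 22 and 36.1 CPM in KO 1 and 2 and 311 and 234 CPM in Control 1 and 2 (log2 -3.31 ± 0.42, SE, edgeR adjusted p = 0.0022). It was found in 2 of 28 and 4 of 26 cells of KO 1 and 2 and in 27 of 64 and 31 of 69 cells of Control 1 and 2. Ccnd1 was lower in all other kept cells too (log2 -2.55 ± 0.43, SE, edgeR adjusted p = 0.0299). Its difference between the 2 sets did not pass (-0.93 ± 0.61, edgeR interaction adjusted p = 0.893). Ccnd2 was not lower in the other cells (log2 0.03 ± 0.18, edgeR adjusted p = 0.938). Ccnd2 had 36.7 and 18.1 CPM in KO 1 and 2 and 132 and 170 CPM in Control 1 and 2 (log2 -2.68 ± 0.47, edgeR adjusted p = 0.0132). After thinning, a UMI of Mki67 or Top2a, genes of dividing cells, was found in 0 of 28 and 2 of 26 cells of KO 1 and 2 and in 2 of 49 and 2 of 64 cells of Control 1 and 2. The 0 of 28 allows a share of cells with such a UMI of up to 10.7%, taken as 3 cells of 28. Without thinning the numbers were 0 of 28 and 2 of 26 cells of KO 1 and 2 and 3 of 64 and 6 of 69 cells of Control 1 and 2, so the share moved with depth and is no share of dividing cells. Of the 18 genes of the cell cycle list, 5 were tested and none was called, beside 1.91% of all 2300 tested genes.

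Slamf9, a SLAM family receptor of antigen-presenting cells, had 0 UMIs in both KO libraries and 18 and 30 UMIs in Control 1 and 2, and was at least 9.48-fold lower against a floor of 3 UMIs over the group (edgeR adjusted p = 0.00941). Dapk1, a calcium-dependent kinase tied to cell death, had 0 and 1 UMIs in KO 1 and 2 and 22 and 27 UMIs in Control 1 and 2 (edgeR adjusted p = 0.0147). Ly6a, the surface protein Sca-1, had 0 and 1 UMIs in KO 1 and 2 and 11 and 35 UMIs in Control 1 and 2 (edgeR adjusted p = 0.0168). Slamf9 came from 13 and 20 cells of Control 1 and 2, so its loss did not rest on a single cell. In all other kept cells Slamf9 was lower too (log2 -1.73 ± 0.34, SE, edgeR adjusted p = 0.0394). The difference between these sets did not pass (edgeR interaction adjusted p = 0.192). Slamf7 had 44.0 and 48.2 CPM in KO 1 and 2 and 152 and 150 CPM in Control 1 and 2 (log2 -1.86 ± 0.39, SE, edgeR adjusted p = 0.0299). The membrane proteins Tmem176a (log2 -1.60 ± 0.32) and Cd7 (log2 -1.77 ± 0.41) and the growth cone protein Basp1, with 1 UMI in each KO library and 20 and 23 UMIs in Control 1 and 2, were lower as well.

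Emp1, a membrane protein encoded on chromosome 6 (135362545 to 135383173, GRCm38), had 14.7 and 24.1 CPM in KO 1 and 2 and 139 and 125 CPM in Control 1 and 2 (log2 -2.85 ± 0.50, SE, edgeR adjusted p = 0.0132). It fell in the classical monocytes of the same libraries too (log2 -4.43 ± 0.41, edgeR adjusted p = 0.000192). In all other kept cells it was lower as well (log2 -1.78 ± 0.28, edgeR adjusted p = 0.026). Emp1 did not pass in the tests of a difference from the monocytes or from the other cells (edgeR interaction adjusted p = 0.712 and 0.813). Its neighbour Hebp1, a heme-binding protein, had 0 and 1 UMIs in KO 1 and 2 and 0 and 12 UMIs in Control 1 and 2 and was not tested in the Cd209a/Clec10a cells. In the monocytes Hebp1 was also lower (log2 -5.37, edgeR adjusted p = 0.00125).

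The transcripts AY036118, Gm26917 and Gm42418 were lower and stand apart. They lie within 39843013 to 39848788 of chromosome 17 (GRCm38), where reads of ribosomal RNA are known to collect, and AY036118 lies inside Gm42418 on the other strand, so their counts are uncertain. Gm42418 had 12590 and 5616 CPM in KO 1 and 2 and 25083 and 33018 CPM in Control 1 and 2 (log2 -1.83 ± 0.36, SE, edgeR adjusted p = 0.0244). In the classical monocytes it had 12700 and 5741 CPM in KO 1 and 2 and 21906 and 21701 CPM in Control 1 and 2, so the same order held in other cells. In Control 2, 54.8% of the Gm26917 UMIs came from 1 cell. The part of this library property in the other results was not tested.

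Among the higher genes, Apoe, which carries lipids between cells, had the smallest p. It had 925 and 1420 CPM in KO 1 and 2 and 172 and 312 CPM in Control 1 and 2 (log2 2.05 ± 0.31, SE, edgeR adjusted p = 0.00787). The groups did not overlap, yet 1 cell gave 40.5% and 36.4% of its UMIs in KO 1 and 2 and 57.7% and 20.5% in Control 1 and 2. Slpi, a secreted protease inhibitor, had 374 and 343 CPM in KO 1 and 2 and 13.2 and 78.0 CPM in Control 1 and 2 (log2 2.52 ± 0.44, edgeR adjusted p = 0.0132). Single cells gave 54.9% and 84.2% of its UMIs in KO 1 and 2. Lyz2, the lysozyme of monocytes, macrophages and granulocytes, had 14668 and 16600 CPM in KO 1 and 2 and 1184 and 4784 CPM in Control 1 and 2 (log2 2.20 ± 0.46, edgeR adjusted p = 0.0299). In DESeq2, an alternative test, Lyz2 did not pass (log2 2.22 ± 0.88, SE, DESeq2 adjusted p = 0.185). It was spread over 27 of 28 and 24 of 26 cells of KO 1 and 2, against 30 of 64 and 52 of 69 cells of Control 1 and 2.

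Tnfaip2, a TNF-induced cytoplasmic protein, had 360 and 217 CPM in KO 1 and 2 and 52.9 and 61.3 CPM in Control 1 and 2 (log2 2.12 ± 0.37, SE, edgeR adjusted p = 0.0132). Fn1 had 565 and 548 CPM in KO 1 and 2 and 66.2 and 192 CPM in Control 1 and 2 (log2 1.81 ± 0.37, edgeR adjusted p = 0.0296). Mpeg1, a pore-forming protein of phagosomes, had 624 and 776 CPM in KO 1 and 2 and 232 and 281 CPM in Control 1 and 2 (log2 1.26 ± 0.27, edgeR adjusted p = 0.0307). Lamp1, a lysosomal membrane protein, had a log2 value of 1.34 ± 0.28, the membrane skeleton gene Add3 one of 1.84 ± 0.34 and the matrix gene Emilin2 one of 1.63 ± 0.33. Add3 was higher in all other kept cells too (log2 0.76 ± 0.16, edgeR adjusted p = 0.0454). Its difference between these sets did not pass (edgeR interaction adjusted p = 0.171). Fgd4, an activator of the GTPase Cdc42, had 12 and 18 UMIs in KO 1 and 2 and 2 and 1 UMIs in Control 1 and 2. The remaining 14 higher genes included Cebpb, a transcription factor of myeloid cells (log2 1.16 ± 0.25), the complement gene C3 (2.01 ± 0.47), the TNF receptor Tnfrsf1b (2.06 ± 0.46) and the lysosomal Psap (0.93 ± 0.22).

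**Figure D3:**
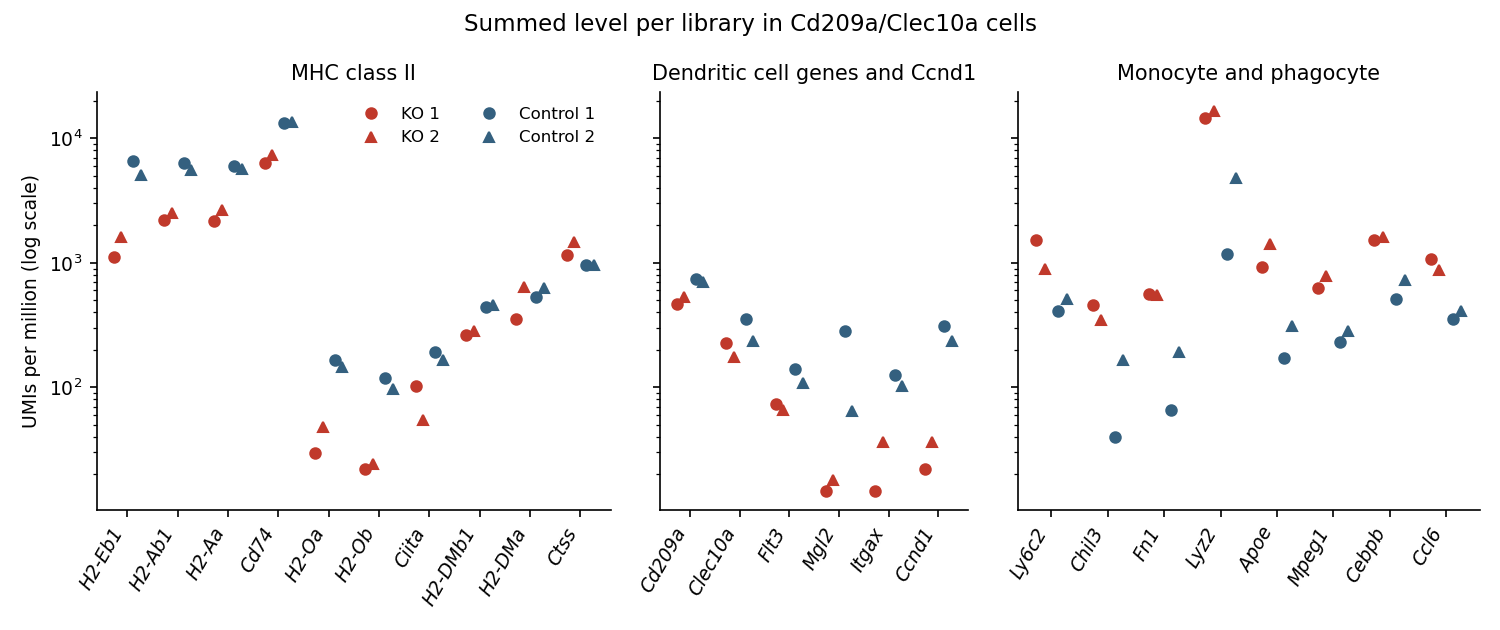
CPM (log axis, UMIs summed per library) of named genes in the Cd209a/Clec10a cells; circles and triangles are replicates 1 and 2, Cyr61 KO red and Control blue. H2-Eb1 lies at 1109 and 1613 CPM in KO 1 and 2, below 6564 and 5060 CPM in Control 1 and 2, while Lyz2 lies at 14668 and 16600 CPM in KO 1 and 2, above 1184 and 4784 CPM in Control 1 and 2.

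Only 1 of the classical monocyte genes passed. Of 11 genes 9 were tested; Fn1 was higher, none was lower and 7 of the 9 log2 values were positive, with a median of 1.21 against -0.01 over all genes. Ly6c2 had 1527 and 891 CPM in KO 1 and 2 and 410 and 512 CPM in Control 1 and 2, with a log2 value of 1.21 ± 0.29 that did not pass (edgeR adjusted p = 0.0538). Ly6c2 has a close copy, so its counts are uncertain. Chil3 had 455 and 349 CPM in KO 1 and 2 and 39.7 and 164 CPM in Control 1 and 2 (log2 1.62 ± 0.43, edgeR adjusted p = 0.0722). Plac8 and Ms4a4c, also on the list, had log2 values of 0.46 ± 0.25 and -0.06 ± 0.30. The part of monocyte transcripts in the lower class II genes and in the higher genes was not tested.

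Of the markers that the selection did not use, none of the 9 macrophage, 8 neutrophil, 5 T cell, 8 fibroblast and mesothelial, 6 endothelial, 8 hepatocyte and 4 erythroid genes was counted high enough to be tested. The neutrophil list summed to 103 and 60.2 CPM in KO 1 and 2 and to 99.2 and 114 CPM in Control 1 and 2. The fibroblast and mesothelial list had 0 UMIs in both KO libraries, against 72.8 and 2.78 CPM in Control 1 and 2. The whole macrophage list of 12 genes summed to 110 and 150 CPM in KO 1 and 2 and to 92.6 and 86.3 CPM in Control 1 and 2. Of these genes, 7 and 10 in KO 1 and 2 and 8 and 5 in Control 1 and 2 were at 0. The whole list includes C1qa, C1qb and C1qc, which the selection limited, so its sum is partly set by the selection. The NK cell list summed to 139 and 198.6 CPM in KO 1 and 2 and to 318 and 334 CPM in Control 1 and 2, the B cell list to 235 and 241 CPM in KO 1 and 2 and to 152 and 111 CPM in Control 1 and 2. The B cell list includes Cd79a, which the selection held at 0. The patrolling monocyte list summed to 220 and 343 CPM in KO 1 and 2 and to 159 and 145 CPM in Control 1 and 2. In each of these 3 lists the groups did not overlap, 1 gene was tested and none passed. The part of these transcripts in the results was not tested.

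Other programmes of dendritic cells are set beside the 1.91% of all 2300 tested genes that passed. With so small a number of genes tested per list, a lack of calls says little about a list. Of 25 cytokine and chemokine genes 10 were tested and only Ccl6, a chemokine of mouse myeloid cells, passed, at 1079 and 873 CPM in KO 1 and 2 and 351 and 409 CPM in Control 1 and 2 (log2 1.18 ± 0.25, edgeR adjusted p = 0.0319). Asking for 2 lectin UMIs turned its sign, to -0.16. Among 12 co-stimulation and checkpoint ligands 4 were tested and Vsir, which encodes the checkpoint protein VISTA, was higher, at 213 and 277 CPM in KO 1 and 2 and 72.8 and 80.8 CPM in Control 1 and 2 (log2 1.49 ± 0.32, edgeR adjusted p = 0.0319). Il1b, an inflammatory cytokine, overlapped between the groups. None of the 8 tested MHC class I genes, 14 interferon-stimulated genes, 11 dendritic cell transcription factors and 3 pattern recognition genes passed. The 20 immediate early and heat shock genes, which respond to tissue dissociation, were all tested and none passed, although they summed to 29197 and 32045 CPM in KO 1 and 2 and to 20101 and 20005 CPM in Control 1 and 2.

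The series title names signalling through SYK, NF-kappaB and PDGF. Syk had 176 and 205 CPM in KO 1 and 2 and 152 and 131 CPM in Control 1 and 2 (log2 0.29 ± 0.31, SE, edgeR adjusted p = 0.747). None of the 11 tested genes of SYK and immunoreceptor signalling and of the 8 tested NF-kappaB genes passed. Over all 2300 tested genes 1.91% passed, so a lack of calls among so few genes says little. Nfkb1 had 184 and 283 CPM in KO 1 and 2 and 337 and 284 CPM in Control 1 and 2 (log2 -0.55 ± 0.30, edgeR adjusted p = 0.448), and the inhibitor Tnfaip3 had a log2 value of 1.03 ± 0.28 (edgeR adjusted p = 0.0751). Pdgfb had 3 and 4 UMIs in KO 1 and 2 and 4 and 9 UMIs in Control 1 and 2, and Pdgfa had none in any library.

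It was then tested whether the differences departed from those in the classical monocytes of the same libraries. In the monocytes 9 of 5501 genes (0.164%) passed between Cyr61 KO and Control. The difference itself, an interaction term in edgeR, passed for 29 of 4602 genes (0.63%). H2-Eb1 had 207 and 222 CPM in monocytes of KO 1 and 2 and 140 and 53.4 CPM in those of Control 1 and 2, a log2 value of 1.24 ± 0.34 that did not pass (edgeR adjusted p = 0.27). Its log2 fold change in the Cd209a/Clec10a cells was lower by a difference of -3.53 ± 0.30 (SE, edgeR adjusted p = 5.91e-08). H2-Aa and H2-Ab1 differed by -2.98 ± 0.29 and -2.63 ± 0.34 (edgeR adjusted p = 3.93e-07 and 7.81e-05). All 3 genes had positive log2 values in the monocytes.

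Slpi, Apoe and Lyz2 differed in the upward direction, by 2.96 ± 0.40, 2.29 ± 0.33 and 2.20 ± 0.34 (SE, edgeR adjusted p = 0.000116, 0.000167 and 0.000565). Monocytes had 1768 and 1405 CPM of Apoe in KO 1 and 2 and 2031 and 1570 CPM in Control 1 and 2, and 18524 and 24955 CPM of Lyz2 in KO 1 and 2 and 15684 and 17036 CPM in Control 1 and 2. In the KO libraries the Cd209a/Clec10a cells stood nearer to the monocytes in both genes than in the Control libraries.

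The same test was made against all other kept cells, where 1217 of 14304 genes (8.51%) passed between the groups and the difference passed for 153 of 12132 genes (1.26%). H2-Eb1, H2-Aa and Cd74 differed by -2.14 ± 0.23, -1.70 ± 0.22 and -1.57 ± 0.21 (SE, edgeR adjusted p = 2.74e-17, 3.74e-11 and 4.35e-11). In the other cells H2-Eb1 had 851 and 818 CPM in KO 1 and 2 and 1040 and 825 CPM in Control 1 and 2, and its log2 value of -0.11 ± 0.18 did not pass. C3, Slpi and Apoe differed by 7.23 ± 0.45, 5.64 ± 0.38 and 4.15 ± 0.29 (edgeR adjusted p = 1.14e-53, 1.69e-46 and 4.62e-43). These 3 genes fell in the other cells, where C3 had 15.1 and 10.9 CPM in KO 1 and 2 and 813 and 315 CPM in Control 1 and 2. There the fibroblast and mesothelial list also stood at 0.236 and 4.74 CPM in KO 1 and 2, against 2442 and 937 CPM in Control 1 and 2, and its part in these differences was not tested.

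**Figure D4:**
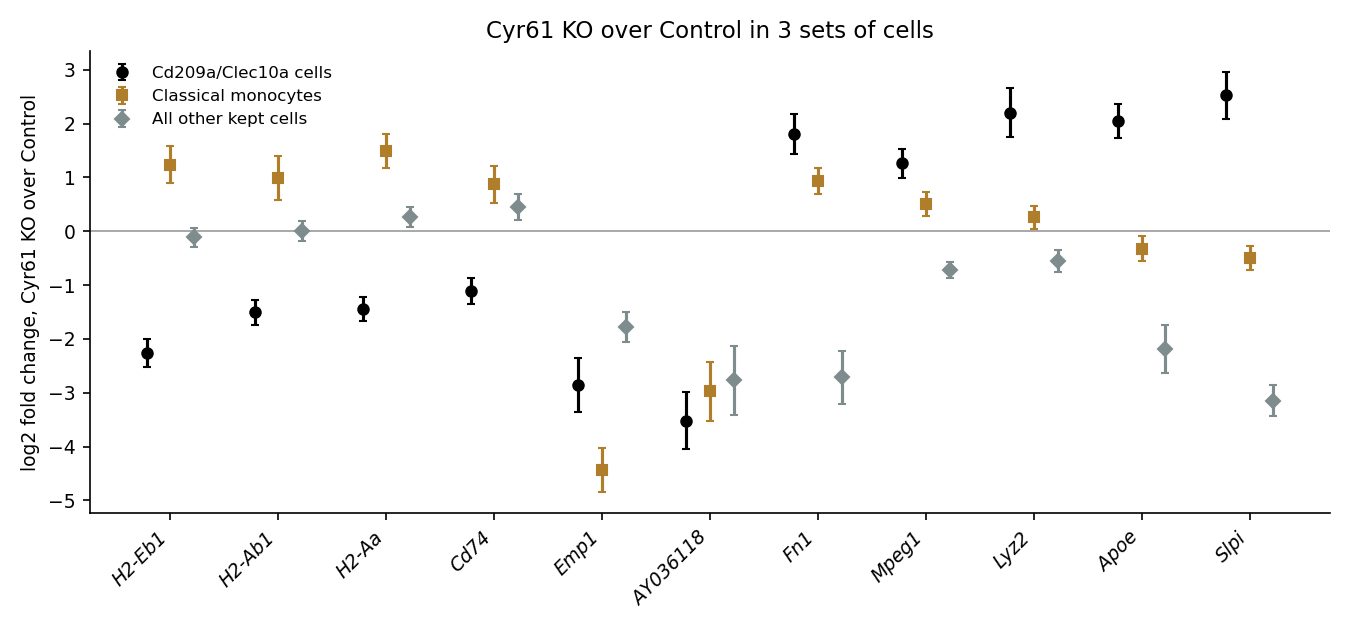
Log2 fold change of Cyr61 KO over Control with its SE (n = 2 libraries each) for 11 named genes in the Cd209a/Clec10a cells (black circles), classical monocytes (ochre squares) and all other kept cells (grey diamonds). H2-Eb1 is at -2.25, 1.24 and -0.11 in these sets, and Apoe at 2.05, -0.32 and -2.19.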

How the data were processed

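For each of 4 libraries the authors deposited a matrix of unnormalized UMI counts; Cell Ranger 3.1.0 and the build mm10 are named in the submitters' processing notes. Per the labels' protocols, livers were stored frozen in serum with DMSO, thawed, digested and passed over a dead cell removal column. Barcodes with at least 250 genes and at most 25% mitochondrial UMIs were kept. The members and gene lists were chosen with earlier results of these data known. Scrublet (scanpy 1.11.5) marked 0.0276% and 1.45% of barcodes in KO 1 and 2 and none in Control 1 and 2. It had thus not worked in 3 libraries, so doublets stayed in, and removing the highest scores (0.8% per 1000 barcodes) was an alternative. Counts were summed over cells per library and tested with edgeR 4.0.16 (TMM, filterByExpr, quasi-likelihood, Benjamini-Hochberg over all tested genes, adjusted p below 0.05); rule genes stayed in the fit, and none of the 6 tested passed. Interactions had library and class as terms. DESeq2 1.42.0 was an alternative. Named genes were the 10 higher and 10 lower with the smallest p and non-overlapping groups, up to 4 per list, the series' signalling genes and the 3 leading genes each way of both interactions; further called genes were named after their values were seen, and 1 called gene is not reported here. In counts simulated for 2085 genes of these cells, edgeR called 37% of genes changed 2-fold and 85% of those changed 4-fold, and 3 of its 125 calls were false. The simulation gave all genes the same spread between libraries and changed none of the lowest genes, so these rates may be too favourable. Promoters came from RefSeq (GRCm38.p6) and gene positions from GENCODE M21. The libraries of a group differed by more than counting error (chi-squared per degree of freedom 2.04 in Cyr61 KO and 2.51 in Control). This cannot tell separate animals from repeat captures of the same animal.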

Additional observations from a re-analysis of the deposited data

Results flagged for a closer look

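A test of the difference itself set apart the following genes, whose change between Cyr61 KO and Control in the Cd209a/Clec10a cells was not that of other cells in the same libraries. Values are differences of log2 fold changes (edgeR interaction, n = 2 libraries each). Against classical monocytes they were 2.96 for Slpi, 2.29 for Apoe, 2.20 for Lyz2, -3.53 for H2-Eb1, -2.98 for H2-Aa and -2.63 for H2-Ab1. Against all other kept cells they were 7.23 for C3, 5.64 for Slpi, 4.15 for Apoe, -2.14 for H2-Eb1, -1.70 for H2-Aa and -1.57 for Cd74. The largest values, those of C3 and Slpi, come with log2 fold changes of 2.01 and 2.52 in the Cd209a/Clec10a cells, against -5.36 and -3.15 in the other cells. In KO 1 and 2 a single Cd209a/Clec10a cell gave 54.9% and 84.2% of the Slpi UMIs. For Apoe a single cell gave 40.5% and 36.4%.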

How the results depend on the processing

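The lower share of Cd209a/Clec10a cells kept its direction under every alternative run, with KO over Control ratios of 0.311 to 0.404, and of 0.33 to 0.465 with 1 library left out. Cells with no Ly6c2, Chil3 or F13a1 UMI, an alternative chosen after seeing the data, gave 0.124, from only 5 and 7 cells in KO 1 and 2. The share among dendritic sets stayed within ratios of 1.06 to 1.15, and of 1.0 to 1.25 with 1 library left out. Against 44 genes, 22 passed with DESeq2. It gave 29 of the 44 an adjusted p, of which 18 passed. The 11 that did not included Lyz2, AY036118 and Emilin2 (DESeq2 adjusted p = 0.185, 0.0969 and 0.0782). Further, 74 passed with no filter on low counts, 78 with the replicate block and 89 at 10% mitochondrial UMIs. Without the highest Scrublet scores 87 passed, and with 2 lectin UMIs 0 (183 at an unadjusted p below 0.05). The count ran from 55 to 132 with 1 library left out, highest without Control 2. Of the 44 calls, 30 to 38 remained with 1 library left out. Matching replicate numbers did not pair the libraries (correlation of deviations 0.054), and the replicate block kept 43 of the 44 calls. Against monocytes 29 genes became 44 with no filter and 9 with 2 lectin UMIs, and 29 to 68 with 1 library left out, highest without Control 2. Against all other cells 153 became 76 with 2 lectin UMIs, and 54 to 213 with 1 library left out, lowest without Control 1 and KO 2. The cause of these moves was not tested. With 2 lectin UMIs or a left-out library fewer cells remained. With 2 lectin UMIs the sign turned for Ccl6 (-0.16), the only one of the 33 member calls tested again, while 27 of 28 monocyte and 149 of 153 other-cell interaction calls kept theirs, the last 152 of 153 without KO 2. With 28 and 26 KO cells, depth limits low genes, and a lone library is assumed to vary like the other group.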
